A study of Mus musculus with 7 samples.

Results

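Open chromatin was described around 10 genes of bone morphogenetic protein (BMP) signalling in second heart field (SHF) cells of the mouse at embryonic day (E) 9.5. The genes were the ligands Bmp2, Bmp4, Bmp5, Bmp7 and Bmp10, the targets Id1, Id2 and Id3, and the inhibitory Smads Smad6 and Smad7. Every peak between 50 kb upstream and 50 kb downstream of each gene body was taken. These peaks fell into 235 of the 210347 regions of the whole series, and the 10 genes are among 21000 curated coding genes. A region here is a run of overlapping peaks with a q-value of at most 0.01 in any of the 7 libraries.

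BMPs are secreted ligands that bind type I and type II receptor kinases, which phosphorylate Smad1, Smad5 and Smad9. These enter the nucleus with Smad4 and bind DNA at GC-rich sites and at GTCT sites. The Id genes, which encode inhibitors of basic helix-loop-helix transcription factors, and Smad6 and Smad7, which block the pathway in a negative feedback, are among its best known direct targets. In the heart, BMP signalling promotes the differentiation of SHF progenitors as they are added to the poles of the heart tube.

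The assay was ATAC-seq, in which a transposase inserts sequencing adapters into accessible DNA. GFP+ cells (replicates 3 and 4) and GFP- cells (replicates 1 and 2) were sorted from the dissected SHF region of embryos with the Hoxb1GFP allele, in which GFP marks Hoxb1-expressing cells of the posterior SHF. The Mef2c-Cre;Rosa tdT line gave the Tomato+ cells (replicates 6 and 8) and the Tomato- cells (replicate 7). In it the anterior heart field enhancer of Mef2c drives Cre, so that Tomato marks the anterior SHF and the descendants of its cells. All 4 groups were at E9.5, and no group carried another treatment. The methods also list Hoxb1GFP as Hoxb1-, a null allele, and the zygosity of the sorted embryos is not given in the sources used here. Embryos were pooled before sorting, GFP+ and Tomato+ cells come from different mouse lines, so that between them population and line cannot be told apart. The negative cells are a mixture of the other cells of the dissected region.

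The 7 peak lists fell into 2 sets by the positions of their peak ends. GFP+ replicates 3 and 4 and Tomato+ replicate 6 shared 321 to 343 peaks with identical ends with each other, and Tomato+ replicate 8 and the 3 sort-negative libraries shared 365 to 452, whereas the 12 pairs across the sets shared 13 to 29. In all 12 pairs across the sets, the most frequent difference was -5 bp at peak starts and 4 bp at peak ends, from the first set to the second, and it was 0 bp at both ends in the 9 pairs within a set. Moves of this size according to strand are the usual correction for the transposase cut, but which lists had it is not given in the sources used here. Both GFP+ lists are in the first set and both GFP- lists in the second, so the set moves with this comparison. Of the lists, that of Tomato+ replicate 6 stood furthest from the others, with an SD of its difference in normalised log2 fold enrichment of 0.402 to 0.439 against each other library, compared with 0.33 to 0.401 for pairs without it. Depth lay between 52340120 and 93074895 tags, and the lists held 187914 to 291287 peaks, of which 64306 to 77746 had a q-value of at most 0.01. Among marker promoters, a peak of q at most 0.01 in every library was present at 3 of 5 genes of the anterior SHF (Fgf10, Isl1 and Mef2c, of which Fgf10 and Isl1 were nearer the top of the list in both GFP+ than in both Tomato+ libraries), 0 of 5 of myocardium, 1 of 5 of endothelium (Kdr), 0 of 4 of blood, 2 of 4 of neural tube (Sox1 and Pax6), 0 of 3 of neural crest and 0 of 4 of endoderm. For myocardium, 2 and 1 of the 5 promoters reached this limit in GFP+ replicates 3 and 4, 3 and 0 in the Tomato+ libraries, 0 in both GFP- libraries and 1 in Tomato- cells. For blood, 0 of 4 did so in all 4 sort-positive libraries, 1 and 0 in the GFP- libraries and 2 in Tomato- cells. The part of other cell types in the values below was not tested.

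Open regions at Id1, Id2 and Id3 held the BMP response element in the one spelling searched, and those at the other 7 genes did not. Other spellings and spacings of it were not searched. This element, a Smad binding sequence, was searched on both strands as GGCGCC, then any 5 bases, then GTCT, so that every match also contains GGCGCC. It occurred 447 times in the genome and 6 times in the 1323 kb around the 10 genes. All 6 matches were at Id1, Id2 and Id3, and 5 of them lay inside regions with a peak in every library. They are shown on the strand of the gene with 120 bases around them (GRCm38.p6), because they are the full matches in these open regions. The fixed letters of the element are in capitals.
Id1 +3.2 kb (chr2:152739419-152739538, plus strand): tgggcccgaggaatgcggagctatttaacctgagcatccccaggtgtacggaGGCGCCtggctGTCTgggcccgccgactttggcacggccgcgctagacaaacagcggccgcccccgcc
Id2 -2.7 kb (chr12:25098802-25098921, minus strand): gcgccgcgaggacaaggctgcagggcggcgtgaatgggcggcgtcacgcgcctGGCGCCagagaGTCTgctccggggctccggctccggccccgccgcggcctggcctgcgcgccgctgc
Id2 +3.4 kb (chr12:25092992-25093111, minus strand): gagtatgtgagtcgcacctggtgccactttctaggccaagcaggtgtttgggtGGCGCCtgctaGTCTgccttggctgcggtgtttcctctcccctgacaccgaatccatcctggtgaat
Id3 -3.3 kb (chr4:136140488-136140607, plus strand): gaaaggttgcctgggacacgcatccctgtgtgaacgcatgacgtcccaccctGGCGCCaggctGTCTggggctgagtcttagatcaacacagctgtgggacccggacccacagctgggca
Id3 +4.3 kb (chr4:136147929-136148048, plus strand): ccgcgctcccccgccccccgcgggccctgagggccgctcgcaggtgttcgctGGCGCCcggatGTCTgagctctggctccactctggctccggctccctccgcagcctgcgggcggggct

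All 6 matches read in the direction of their gene, and in all 6 the GTCT was followed by a G, so that each also holds the Smad box CAGAC on the other strand. The Id1 element was 3220 bp downstream of the transcription start site (TSS) and 2061 bp past the end of the gene. The Id2 elements were 2762 bp upstream of the TSS, and 3048 bp downstream of it, 741 bp past the gene end. The Id3 elements were 3282 bp upstream, in an intron of the non-coding gene Gm42329, and 4159 bp downstream, 2589 bp past the gene end. The sixth match, 971 bp downstream of the Id3 TSS and inside the gene, was in no region. Id2 and Id3 thus each had one element in an open region on either side of the gene.

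Of the 23 regions with a peak in every library around the Id genes, 5 (21.7%) held the element, compared with 0 of 22 around the Bmp genes, Smad6 and Smad7. Over the whole series it was present in 96 of 210347 regions (0.0456%) and in 74 of the 34032 regions with a peak in every library (0.217%), so that 6.76% of these 74 regions lie at the Id genes. Within 50 kb of the gene body, 176 of 21000 coding genes (0.838%) had at least 1 such region. Those with 2 or more were Id2, Id3 and their neighbours Kidins220 and E2f2. Within 5 kb of the gene body, a distance chosen after the matches were seen, 73 of 21000 coding genes (0.348%) had at least 1 such region. At this distance only Id2 and Id3 had 2. In the 42 other genes of the pathway considered below, such a region was present within 5 kb of Grem1, which encodes a BMP antagonist, and of the homeobox genes Msx1 and Msx2, which are known BMP targets. These are counts of letters in open sequence, and Smad binding was not measured. Both the element and the Id genes were chosen as known parts of the BMP response. The genes from which the element was defined are not given in the sources used here. Its share at the Id genes is therefore a description and no independent test.

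The regions that hold the element were open in all 4 groups. The Id1 region at +3.2 kb (chr2:152739073-152739736, intergenic) had a fold enrichment over local background of 3.27 and 3.71 in the GFP+ libraries, 4.31 and 3.90 in the Tomato+ libraries, 2.91 and 2.26 in the GFP- libraries and 2.6 in Tomato- cells, with each pair in the order of the replicate numbers. All 4 sort-positive values were above all 3 sort-negative ones. The Id2 region at -2.7 kb (chr12:25098420-25099119, intergenic) had 4.16 and 5.90 in GFP+, 5.63 and 6.33 in Tomato+, 4.17 and 6.17 in GFP- and 6.38 in Tomato- libraries, and the one at +3.4 kb (chr12:25092367-25093109, intergenic) had 5.51 and 4.04, 3.96 and 3.21, 3.19 and 5.31, and 3.5 in the same order. At -2.7 kb GFP+, Tomato+ and GFP- libraries overlapped and Tomato- cells had the highest fold enrichment. On the normalised log2 scale GFP- replicate 2 (2.64) was above Tomato- cells (2.62) there. At +3.4 kb both GFP+ values were above both Tomato+ values. The Id3 region at -3.3 kb (chr4:136140331-136140641) had 5.03 and 4.86 in GFP+, 3.24 and 5.28 in Tomato+, 4.58 and 4.34 in GFP- and 4.31 in Tomato- libraries, and the one at +4.3 kb (chr4:136147635-136148584, intergenic) had 5.32 and 4.82, 4.01 and 4.39, 4.64 and 4.50, and 5.06. At Id3 +4.3 kb both GFP+ values exceeded both Tomato+ values, by 0.29 on the normalised log2 scale (SE 0.21, limma adjusted p = 0.726).

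**Figure D1:**
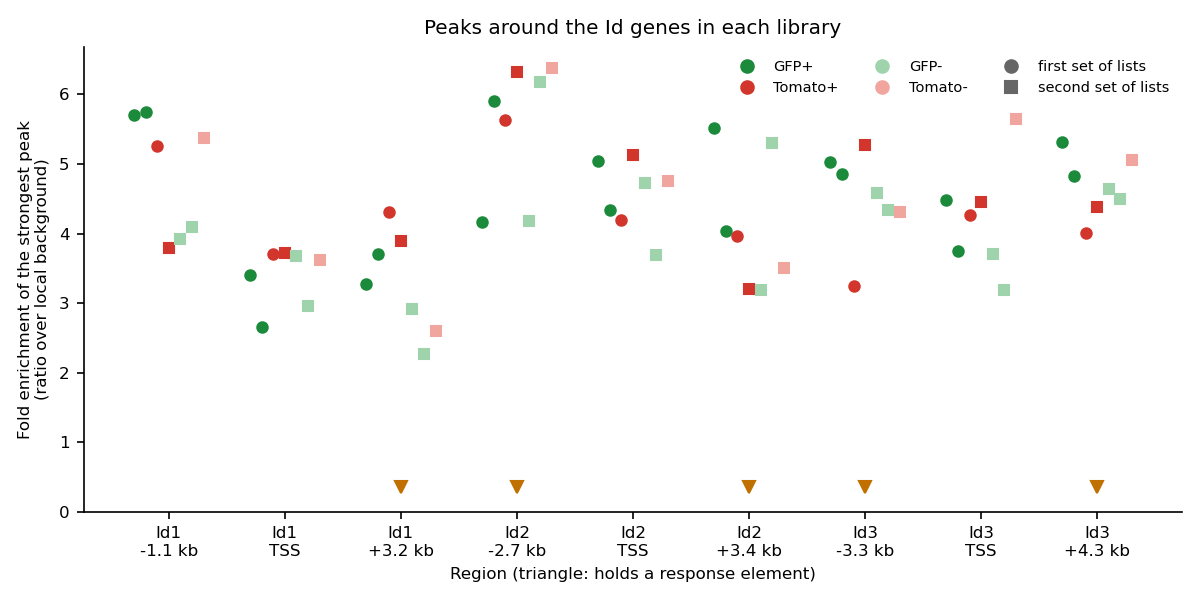
Fold enrichment (ratio over local background) of the strongest peak in 9 regions around Id1, Id2 and Id3, one point per library, coloured by group and shaped by set of lists. Triangles mark the 5 regions that hold a response element. They ranged from 2.26 to 6.38, the regions at the 3 TSSs from 2.66 to 5.64, and at Id1 the region at -1.1 kb was higher than that at the TSS in all 7 libraries.

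The most enriched region next to the Id1 TSS was not at the TSS itself but at -1.1 kb (chr2:152734876-152735381). It reached into the promoter window, which runs from 1000 bp upstream to 100 bp downstream of a TSS. Its fold enrichment was 5.70 and 5.75 in GFP+, 5.25 and 3.80 in Tomato+, 3.92 and 4.09 in GFP- and 5.38 in Tomato- libraries, while the region over the TSS had 3.41 and 2.66, 3.70 and 3.72, 3.68 and 2.95, and 3.61. Both GFP+ values were above both Tomato+ values at -1.1 kb and below them at the TSS, as they were at +3.2 kb. The summit of the -1.1 kb peak was at -1096 to -1079 bp from the TSS in all 7 libraries. Its central 300 bases are shown with GGCGCC and the Smad box in capitals, because they hold 1 GGCGCC and 4 Smad boxes without the full element.
Id1 -1.1 kb (chr2:152734979-152735278, plus strand): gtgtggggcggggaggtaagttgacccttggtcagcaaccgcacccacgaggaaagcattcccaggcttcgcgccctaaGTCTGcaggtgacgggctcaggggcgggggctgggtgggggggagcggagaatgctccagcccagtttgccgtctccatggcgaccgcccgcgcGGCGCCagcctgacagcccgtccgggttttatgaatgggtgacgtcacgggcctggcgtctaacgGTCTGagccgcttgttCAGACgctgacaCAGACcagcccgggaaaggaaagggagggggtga

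In windows of 300 bases around the region centres, GGCGCC was present in 13 of the 45 regions with a peak in every library around the 10 genes (28.9%), compared with 16.5% of all regions with a peak in every library. All 13 were among the 35 regions of the Id and Smad genes, and 0 were among the 10 of the ligands. This holds for the central 300 bases only. Over its whole length, the promoter region of Bmp2 held GGCGCC 2 times and that of Bmp7 4 times. The Smad box CAGAC was in 27 of 45 (60.0% against 47.3%), among them 8 of the 10 regions at ligands. The HOX-PBX sequence TGATNNAT was in 2 (4.44% against 7.11%), the MEIS sequence TGACAG in 3 (6.67% against 14.5%), the GATA sequence AGATAA in 2 (4.44% against 6.04%) and the TEAD sequence GGAATG in 10 (22.2% against 12.3%). The 45 regions had a median GC content of 62.3%, above the 58.7% of all regions with a peak in every library.

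Open regions were denser around the targets and inhibitors than around the ligands. Of the 235 regions, 45 (19.1%) had a peak in every library, where 16.2% of all regions did, and 66 (28.1%) had a peak in a single library, against 35.4%. Around the 5 targets and inhibitors 35 of 152 regions were open in every library, and around the 5 ligands, in windows that add up to 721 kb against 603 kb, 10 of 83 were. Per 100 kb, Id1 (chr2:152736251-152737410) had 9.89 such regions, Id3 (chr4:136143822-136145392) 7.88, Id2 (chr12:25093799-25096092) 4.89, Smad6 (chr9:63953076-64022085) 4.14 and Smad7 (chr18:75367365-75395935) 3.89. All 5 were above the median of 2.25 over the windows of all coding genes, and 98.8% of coding genes were below Id1 and 96.3% below Id3. Among the ligands, Bmp4 (chr14:46383525-46390669) had 2.8, Bmp7 (chr2:172868012-172940321) 2.32, Bmp2 (chr2:133552159-133562896) 1.81, Bmp10 (chr6:87428994-87434512) 0.948 and Bmp5 (chr9:75775365-75900316) 0. The windows also hold neighbouring coding genes, namely H13, Mcts2, Cox4i2 and Bcl2l1 at Id1, E2f2 at Id3, Kidins220 at Id2, Ctif at Smad7, Spo11 at Bmp7, and Gkn2, Gkn3 and Arhgap25 at Bmp10, and a region cannot be assigned to one of them by position alone.

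**Figure D2:**
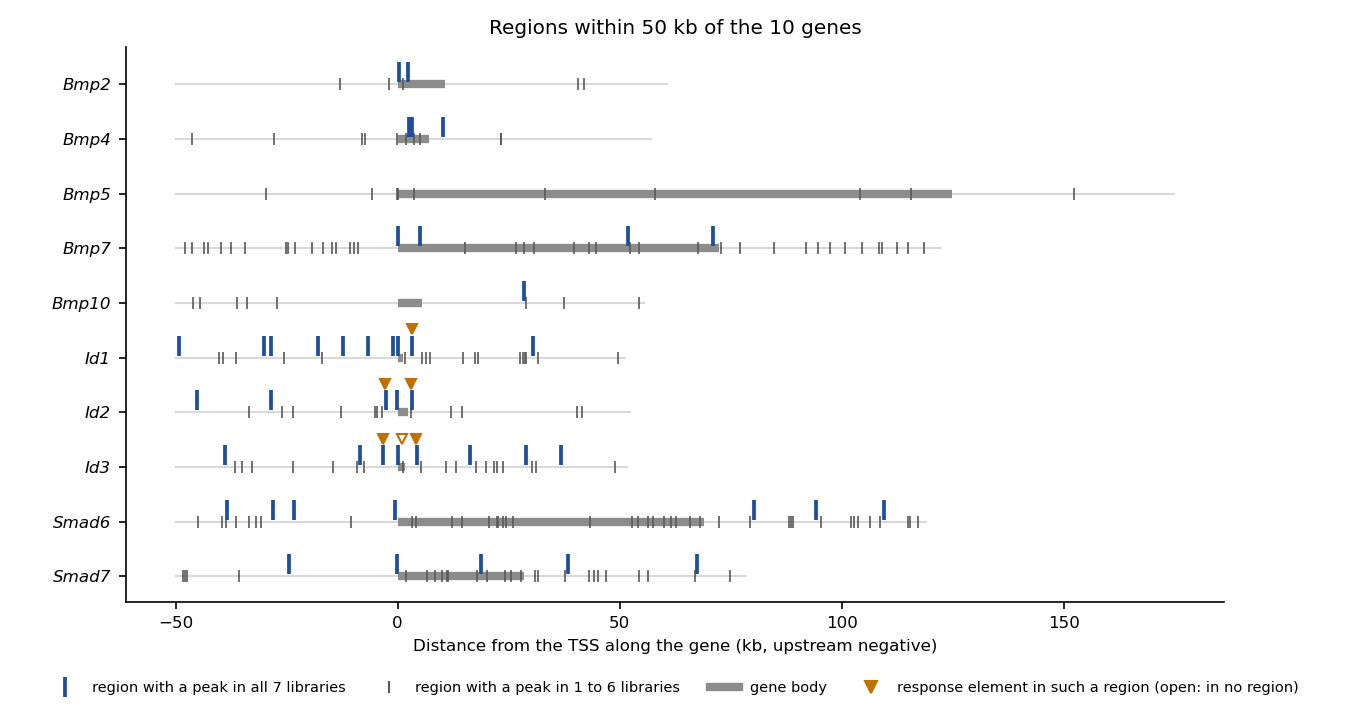
Regions within 50 kb of the 10 genes, by distance from the TSS in kb along the gene, upstream negative. Long blue marks are the 45 regions with a peak in all 7 libraries, short grey marks the regions with a peak in 1 to 6 libraries, grey bars the gene bodies and triangles the 6 response elements, all at the Id genes, one of them open because it lies in no region.

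At the promoters, the sites without a peak in every library were again those of ligands. A promoter peak of q at most 0.01 was present in every library for 7 of the 10 genes, Bmp2, Bmp7, Id1, Id2, Id3, Smad6 and Smad7, where 53.1% of coding genes had one. None of the 10 belonged to the 18.2% of coding genes with a promoter peak in no library. The 3 exceptions were ligands.

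The promoter of Bmp4, a ligand needed for septation and outflow tract development, had a peak in 3 of 7 libraries, with a fold enrichment of 3.58 in Tomato+ replicate 6, 2.58 in Tomato+ replicate 8 and 2.53 in GFP- replicate 2, and passed the q limit in the first of these only. That of Bmp5 had a peak in 5, with 2.41 in GFP+ replicate 3, 3.61 and 2.83 in the Tomato+ libraries, 2.71 in GFP- replicate 2 and 3.24 in Tomato- cells, and passed it in Tomato+ replicate 6 and Tomato- cells. The promoter of Bmp10, which encodes a ligand of the embryonic myocardium, had a peak in 3, with 3.29 and 2.26 in Tomato+ and 2.52 in GFP- replicate 1, and passed it in none. At Bmp4 and Bmp10, 2 of the 10 genes, both Tomato+ libraries had a peak and neither GFP+ library did, a pattern of 0.624% of coding genes. The reverse was found at 0 of 10, against 0.943%. Of these 4 Tomato+ peaks 3 did not pass the q limit, with a -log10 q of 1.23 at Bmp4 and of 1.83 and 0.38 at Bmp10, where the limit is 2. These patterns were counted after the values were seen.

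The promoters of the other 2 ligands were open throughout. At Bmp2 the fold enrichment was 3.54 and 4.71 in GFP+, 4.28 and 3.43 in Tomato+, 3.49 and 4.73 in GFP- and 4.32 in Tomato- libraries. At Bmp7 it was 3.21 and 4.11, 3.81 and 2.91, 3.4 and 4.07, and 3.47 in the same order. The groups overlapped at both genes. Promoter sequences from RefSeq (GRCm38.p6, 250 bases before to 50 after the start) were at hand for Bmp4, Bmp5, Bmp10, Id2, Id3 and Smad6, 6 of the 10 genes, and not for Bmp2, Bmp7, Id1 and Smad7. The ratio of observed to expected CpG was 0.419 at Bmp4, 0.284 at Bmp5 and 0.165 at Bmp10, and 0.711, 0.704 and 0.952 at Id2, Id3 and Smad6. The median was 0.796 over coding promoters with a peak of q at most 0.01 in every library and 0.163 over those with no such peak, and the 3 ligand promoters without a peak in every library thus had the lowest ratios of the 6.

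The promoters of the targets and inhibitors were open in every library. At Id2 it was 5.04 and 4.34 in GFP+, 4.19 and 5.13 in Tomato+, 4.72 and 3.69 in GFP- and 4.76 in Tomato- libraries. At Id3 it was 4.48 and 3.74, 4.27 and 4.45, 3.70 and 3.19, and 5.64. At Smad6 it was 4.98 and 3.63, 3.41 and 5.08, 4.65 and 4.92, and 4.62, with the summit of the strongest peak at -1078 to -937 bp from the TSS in 6 of 7 libraries and at -42 bp in Tomato+ replicate 8. The groups overlapped at Id2 and Smad6, and at Id3 Tomato- cells were the highest and both GFP+ values were above both GFP- values. By rank of fold enrichment within each list, 1 being the highest, GFP+ and GFP- libraries overlapped at Id3. The rank was 34938 in GFP+ replicate 4 and 33748 in GFP- replicate 1. At Smad7 the fold enrichment was 5.04 and 4.27, 4.77 and 5.93, 4.54 and 4.14, and 4.47. The summit of its strongest peak was at -797 to -642 bp from the TSS in 6 of 7 libraries and at 62 bp in GFP- replicate 2. Both Tomato+ values were above the 3 sort-negative ones, and the GFP+ values overlapped with each group. By rank within each list the Tomato+ order did not hold, with 21764 in Tomato+ replicate 6 and 20431 in GFP- replicate 1.

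To compare libraries of different depth, peaks were ranked by fold enrichment within each list, position 1 being the highest. In the Id1 promoter window the position was 14879 and 14240 in GFP+, 17853 and 33780 in Tomato+, 28802 and 26208 in GFP- and 16700 in Tomato- libraries. The peak ranked here was the one at -1.1 kb, whose summit lay upstream of the window in every library. Over the Id1 TSS itself the order was the reverse, with each GFP+ library less enriched than each Tomato+ library. Of the 7 promoters with a peak in all 4 sort-positive libraries and in every library, Id1 was the only one with both GFP+ libraries nearer the top than both Tomato+ libraries, an order found at 26.8% of coding promoters. It was also nearer the top in both GFP+ than in both GFP- libraries. With 2 libraries against 2 the smallest two-sided exact p is 0.333, and within the first set of lists the positions were 14240 to 17853, within the second 16700 to 33780. No gene had both Tomato+ libraries nearer the top, an order found at 10.1% of coding promoters. By -log10 p or pileup, Id1 lost this order and Smad7 had both Tomato+ libraries nearer the top.

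Between sort-positive and sort-negative libraries, no promoter position passed the test. In exact permutation tests of 4 libraries against 3 (two-sided, smallest possible p 0.0286), the difference in mean log2 position, sort-positive minus sort-negative, was -0.30 at Id1 (exact p = 0.486), -0.24 at Smad7 (exact p = 0.314) and 0.59 at Smad6 (exact p = 0.343), where a negative value means nearer the top in sort-positive cells. The value for Id1 is that of its peak at -1.1 kb and not of the peak over the TSS. Over the 7 genes p lay between 0.314 and 0.743, and between 0.72 and 0.743 after Benjamini-Hochberg adjustment.

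**Figure D3:**
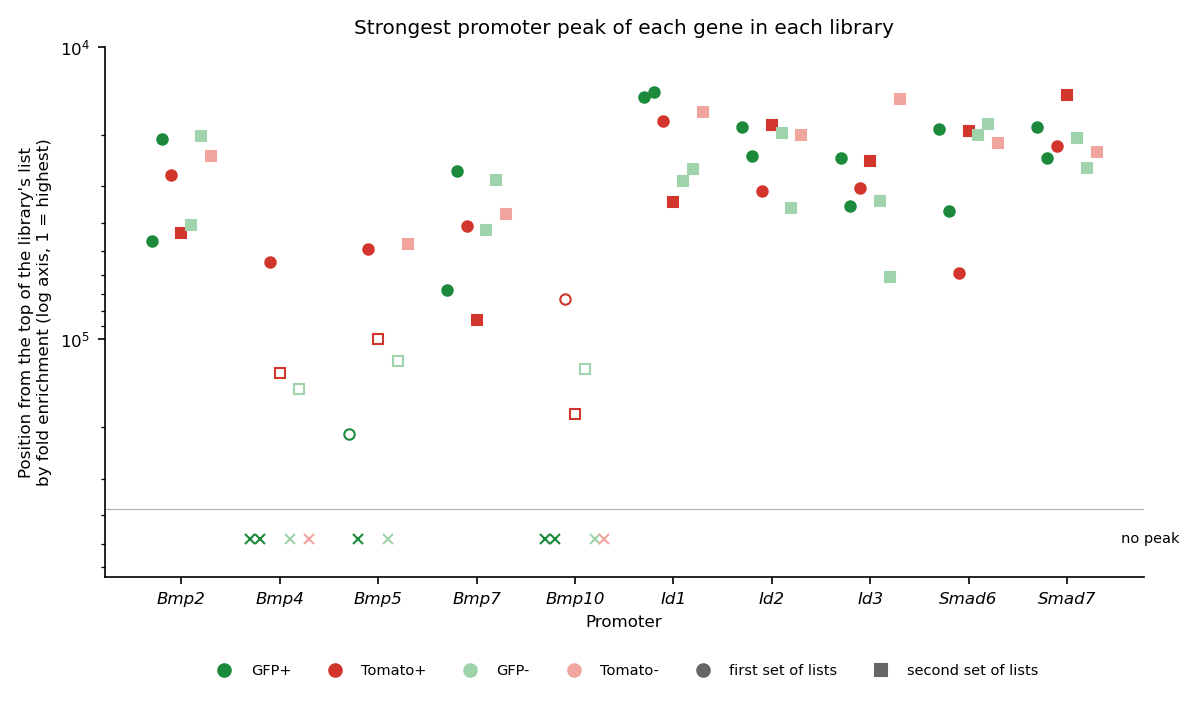
Position of the strongest promoter peak from the top of each library's list by fold enrichment (log axis, 1 is the highest), for the 10 genes, coloured by group and shaped by set of lists. Filled points have q at most 0.01, open points do not, and crosses mark libraries without a peak, which occur only at Bmp4, Bmp5 and Bmp10.

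Bmp4 had 13 regions, one of them at its promoter, and 3 of the others had a peak in every library. The strongest lay at +3.2 kb (chr14:46387213-46387738), over the promoter of the antisense non-coding gene Gm15222 and 68 bp of exon 2 of a Bmp4 transcript. Its fold enrichment was 4.45 and 4.99 in GFP+, 3.99 and 3.87 in Tomato+, 4.65 and 4.67 in GFP- and 4.28 in Tomato- libraries, with q at most 0.01 in all 7. Both GFP+ values were above both Tomato+ values and overlapped with the GFP- values. The next, at +10.2 kb (chr14:46380312-46380713, intron of the non-coding gene Gm15217), had 3.13 and 4.25, 3.38 and 3.26, 3.02 and 3.94, and 3.64. The promoter of Bmp4 was less enriched than that of Gm15222 in the 3 libraries in which it had a peak. At +2.7 kb, in an exon of Gm15222, the values were 2.57 and 2.41, 3.85 and 3.01, 3.80 and 2.7, and 3.19, with both Tomato+ above both GFP+.

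Upstream of Bmp4, 2 regions had peaks in sort-positive libraries only. The region at -46.2 kb (chr14:46436769-46437010, intergenic) had peaks of 3.61 and 3.0 in the GFP+ libraries and 5.26 in Tomato+ replicate 6, and no peak in Tomato+ replicate 8 or in the 3 sort-negative libraries. The region at -27.8 kb (chr14:46418320-46418681, intergenic) had 3.61 in GFP+ replicate 3 and 3.94 in Tomato+ replicate 6. All these peaks are in lists of the first set. At -46.2 kb every list of the first set had a peak and no list of the second set did, that of Tomato+ replicate 8 included. The part of the set and of the sort in this was not tested. With Id2 -33.4 kb and Smad7 +47.0 kb, 4 of the 235 regions had q at most 0.01 in 2 or more sort-positive libraries and no sort-negative peak, against 1.27% of all regions, and 1, Smad7 +54.3 kb, had the reverse, against 0.467%. These classes were defined after the values were seen, and without GFP+ replicate 3 or Tomato+ replicate 6 the 4 regions became 1. The central 200 bases of the Bmp4 +3.2 kb region outside the exon are shown with the Smad box in capitals. Also shown are 240 bases of the -46.2 kb region, which holds none of the motifs searched between its own ends. The wider motif window around the centre of the -46.2 kb region held 1 Smad box and 1 TEAD sequence. These regions are shown because they are the strongest constant and the most distant selective region of this gene.
Bmp4 +3.2 kb (chr14:46387376-46387575, minus strand): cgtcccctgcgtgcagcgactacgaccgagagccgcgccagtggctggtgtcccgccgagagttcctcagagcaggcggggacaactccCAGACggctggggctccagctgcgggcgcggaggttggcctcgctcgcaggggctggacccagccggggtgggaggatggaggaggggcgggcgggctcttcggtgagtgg
Bmp4 -46.2 kb (chr14:46436770-46437009, minus strand): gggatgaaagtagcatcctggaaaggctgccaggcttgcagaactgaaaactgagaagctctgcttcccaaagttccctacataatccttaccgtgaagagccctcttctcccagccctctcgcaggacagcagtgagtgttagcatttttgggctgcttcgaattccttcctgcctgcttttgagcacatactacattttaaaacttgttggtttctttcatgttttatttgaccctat

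Bmp5 had no region with a peak in every library. Its most enriched region, chosen after its values were seen, was in an intron 115.5 kb downstream of the TSS (chr9:75890801-75890985), with 4.82 and 4.0 in GFP+, 4.6 and 5.38 in Tomato+, 2.77 in GFP- replicate 1, no peak in GFP- replicate 2, and 2.81 in Tomato- cells. It passed the q limit in the 4 sort-positive libraries, from both sets, and in no sort-negative library, as did 0.0894% of all regions. Around the 10 genes 3 regions had this pattern, the other two being Id2 -45.1 kb, with 4.22 and 4.32 in GFP+, 5.34 and 3.23 in Tomato+, 3.02 and 3.06 in GFP- and 2.37 in Tomato- libraries, and Smad6 +94.3 kb, with 3.56 and 3.78, 3.69 and 3.6, 2.8 and 2.84, and 2.61. All 3 sort-negative libraries had a peak at both of these, only not of q at most 0.01. The reverse pattern was present at 1 region, Bmp7 +67.6 kb, against 0.164% of all regions. Both patterns were defined after the values were seen. Bmp10 had 1 region with a peak in every library, at +28.4 kb (chr6:87457183-87457699, intergenic), with 3.75 and 3.5, 2.63 and 3.68, 4.28 and 3.76, and 4.45. Bmp2 had, besides its promoter, a region over exon 2 at +2.4 kb (chr2:133554202-133554983), with 4.13 and 2.93, 2.78 and 3.80, 3.94 and 3.37, and 3.71. At Bmp10 all 3 sort-negative values were above the 4 sort-positive ones, and at Bmp2 the groups overlapped.

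Bmp7 had 44 regions, 4 with a peak in every library, and in 3 of these both Tomato+ libraries were above both GFP+ libraries on the normalised scale. This order was found at 18.6% of all regions with a peak in every library. In the last exon, exon 7, at +71.1 kb (chr2:172869032-172869495), the fold enrichment was 3.08 and 3.53 in GFP+, 5.71 and 5.58 in Tomato+, 3.25 and 2.94 in GFP- and 4.16 in Tomato- libraries. Both Tomato+ values, one from each set of lists, were above those of every other library. The normalised log2 means were 1.72 in GFP+ and 2.49 in Tomato+, a difference of -0.77 (SE 0.21, 95% interval -1.24 to -0.30), which did not pass limma's test over all regions (adjusted p = 0.465). With the set of lists as a covariate the difference was -0.83 (adjusted p = 0.317). In an intron at +52 kb the fold enrichment was 2.66 and 2.6, 3.29 and 2.71, 2.65 and 2.83, and 2.33, with Tomato+ less clearly above GFP+. A further region in a Bmp7 intron, at +15.2 kb (chr2:172924975-172925315), was 1 of 2 with q at most 0.01 in both Tomato+ libraries (4.07 and 3.17) and no GFP+ peak, and it had a peak of 2.58 in Tomato- cells. The other was Id1 +6.4 kb (chr2:152742554-152742709), with 3.01 and 3.0 in Tomato+ and 3.87, 3.93 and 3.69 in the sort-negative libraries, so that the GFP+ libraries alone lacked it. Such regions made up 0.397% of the whole series, and those with q at most 0.01 in both GFP+ libraries and no Tomato+ peak, of which these loci held 0, made up 0.518%.

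Among the targets, the distal regions of highest mean enrichment were at -28.4 kb, in an exon of the neighbouring gene H13, and at -49.3 kb, at the promoter of Mcts2, for Id1, at -2.7 and -28.6 kb for Id2, and at +4.3 and -3.3 kb for Id3. For Id2 and Id3, 3 of these 4 are the regions with response elements. For Smad6 they were at +109.5 kb (chr9:63912465-63912686), with 3.22 and 3.90 in GFP+, 3.92 and 6.71 in Tomato+, 4.57 and 3.79 in GFP- and 4.87 in Tomato- libraries, and at +80.2 kb. For Smad7 they were at +67.5 kb, in an exon of Ctif, and at -24.5 kb (chr18:75342194-75343521), with 5.35 and 7.23 in GFP+, 5.84 and 6.29 in Tomato+, 3.96 and 4.64 in GFP- and 5.14 in Tomato- libraries. All 4 sort-positive values at Smad7 -24.5 kb were above the 3 sort-negative ones.

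The order of the libraries was counted over the 45 regions on the normalised scale, after the values were seen. All 4 sort-positive libraries were above the 3 sort-negative ones in 4 regions, Id1 +3.2 kb, Id2 -45.1 kb, Smad6 +94.3 kb and Smad7 -24.5 kb, and 2.89% of all regions with a peak in every library had this order. The reverse was found in 2, Bmp10 +28.4 kb and Id1 -18.0 kb, against 2.67%. Both GFP+ libraries were above both Tomato+ libraries in 6 (19.6% of all such regions), namely Bmp4 +3.2 kb, Id1 -28.4 and -1.1 kb, Id2 +3.4 kb, and Id3 +4.3 and +16.2 kb. Both Tomato+ libraries were above both GFP+ libraries in 10 (18.6% of all), among them 3 at Bmp7, 2 at Id1 and 2 in or next to Smad7. None of the 6 regions higher in GFP+ was at Bmp2, Bmp7, Bmp10, Smad6 or Smad7, and Bmp5 had no region with a peak in every library.

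In the test over the 34032 regions with a peak in every library (limma on quantile-normalised log2 fold enrichment, Benjamini-Hochberg adjustment, adjusted p below 0.1), 0% were called in any of the 3 comparisons, and 0 of the 45 regions of these genes were. Regions that lacked a peak in any library were not in this test, so a region open in some groups only could not be called. At an unadjusted p below 0.05, 2938 regions (8.63%) differed between GFP+ and Tomato+ cells, 2122 (6.24%) between GFP+ and GFP- and 1207 (3.55%) between Tomato+ and Tomato- cells. Of the 45 regions 3, 1 and 2 did so. Between GFP+ and Tomato+ these were Bmp7 +71.1 kb, Id3 +36.8 kb, which is the promoter of E2f2 (-0.61, SE 0.21, adjusted p = 0.48), and Smad6 -23.3 kb (-0.62, SE 0.26, adjusted p = 0.546), all lower in GFP+. Against GFP- cells it was Id3 +36.8 kb (-0.50, SE 0.21, adjusted p = 0.779), and between Tomato+ and Tomato- cells it was Id2 -45.1 kb (0.78, SE 0.32) and an intron of Smad7 at +18.9 kb (0.60, SE 0.27), both with an adjusted p of 1.0. The log2 differences of the 45 regions had a median of 0.02 (0.01 over all regions), with 24 above and 21 below 0. The median SE of these differences was 0.24.

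**Figure D4:**
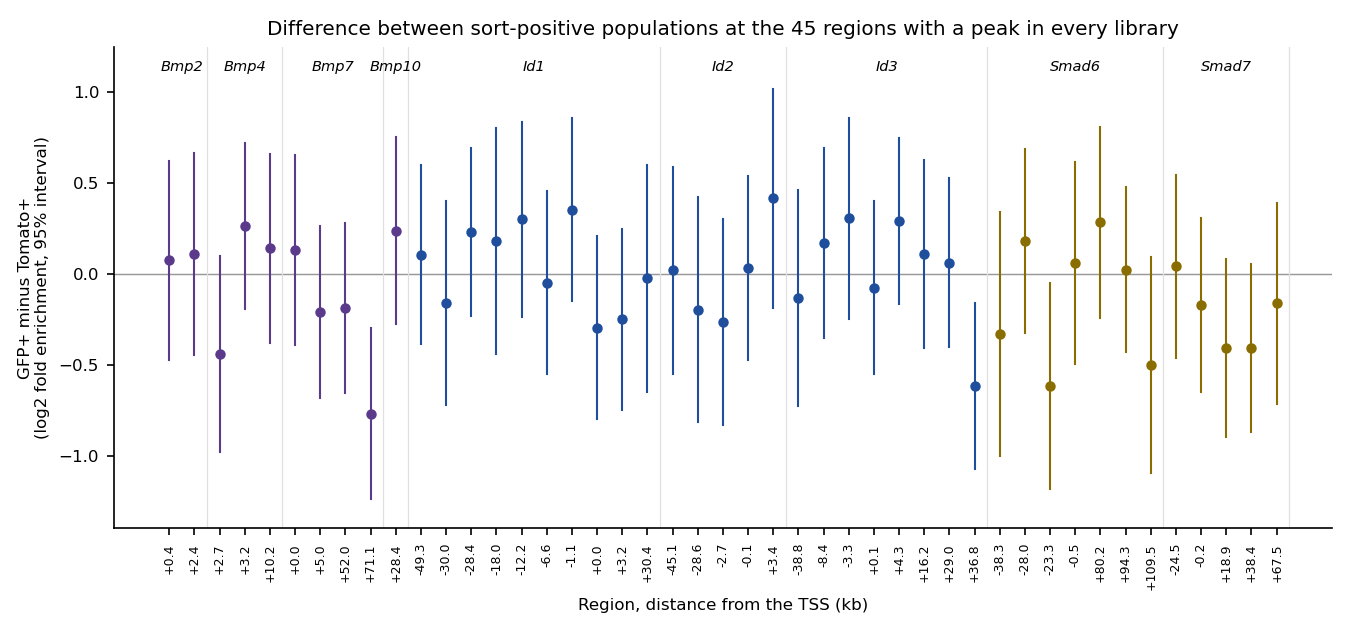
Difference in normalised log2 fold enrichment, GFP+ minus Tomato+, with its 95% interval, at the 45 regions with a peak in every library, grouped by gene and ordered by distance from the TSS in kb. The lowest value is that of Bmp7 +71.1 kb at -0.77, and 42 of the 45 intervals include 0.

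The other genes of the pathway, 42 in all, were examined at their promoters. A peak of q at most 0.01 in every library was present at 6 of 7 receptors (Bmpr1a, Bmpr1b, Bmpr2, Acvr1, Acvr2a and Acvr2b, with Acvrl1, a receptor of endothelium, as the exception), at 4 of 4 receptor-regulated and common Smads, at 6 of 12 antagonists, at 8 of 11 other targets and feedback genes, and at 2 of 8 other ligands (Bmp6 and Gdf6). In all 26 of 42 had one, where 53.1% of coding genes did, and the ligands were below that share and the antagonists near it. Of the 33 promoters with a peak in all 4 sort-positive libraries, 11 were nearer the top in both GFP+ libraries, among them Bmpr2, Smad1, Smad9, Grem1, Id4 and Tbx20, and 4 were nearer the top in both Tomato+ libraries, namely Msx1, Bambi, Atoh8 and Tbx3, with 18 overlapping. At Smad1, which encodes a receptor-regulated Smad, the fold enrichment was 6.41 and 7.32 in GFP+, 4.86 and 4.72 in Tomato+, 5.85 and 5.50 in GFP- and 6.28 in Tomato- libraries. At Msx1 it was 3.29 and 3.10, 4.19 and 5.26, 5.88 and 3.58, and 3.97, so that both GFP+ values were the lowest. These orders rest on 2 libraries against 2 and are shared by 26.8% and 10.1% of coding promoters, and no test was made of them.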

How the data were processed

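ATAC-seq was performed by the authors on sorted SHF cells, and 7 peak lists were used, grouped by the sample labels. Reads had been mapped to GRCm38 by the authors with SNAP. They kept primary, properly paired and non-duplicate alignments outside ENCODE blacklisted regions, and called peaks on single libraries. The methods and labels name MACS2 2.1.1, and the header deposited with Tomato+ replicate 6 names 2.1.0.20150731, a p limit of 0.01, a shift of 37 bp and an extension of 73 bp. A shift of this sign moves reads towards their 3' end, which can move summits away from the cut site. That header's run name contains the letters YFP, and the label Tomato+ was followed. The deposited pileup is a coverage signal that grows with depth. The deposited fold enrichment is a ratio of pileup to local background, and the deposited -log10 of the p-value or q-value comes from MACS2 and refers to one library.

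Several summits of a peak were collapsed to that with the smallest p. Peaks with q at most 0.01 were merged where they shared 1 bp, and the strongest peak per region and library was kept. Tags per library were computed from the lowest background rate. limma was fitted to log2 fold enrichment of all 7 libraries in 4 groups. Tomato- is 1 library, assumed to vary like the others. Nothing in the labels says that replicates came from separate embryo pools, so p-values measure the spread between these libraries. TSSs, genes and sequences are RefSeq GRCm38.p6. The code was tested on simulated data. Genes, lists and motifs were chosen with earlier results of these data known. The text names all 10 genes, up to 2 distal regions of each with the highest mean over all 7 libraries (1 at Bmp2 and Bmp10, 0 at Bmp5) and every population-selective region. The 3 promoters most like that of Bmp4 were not sought, because it had a peak in 3 libraries only. The authors' DiffBind test on reads was not repeated. The marker list of the posterior SHF is not reported here. Tools were R 4.3.3 with limma 3.58.1, and Python 3.11.15 with scipy 1.17.1, numpy 2.4.6, matplotlib 3.10.9 and pandas 2.3.3.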

Additional observations from a re-analysis of the deposited data

How the results depend on the processing

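Of 302 recomputed values, 270 kept their direction and their side of the threshold, or moved within the limit set for counts. Each library except Tomato- replicate 7 was left out in turn. The response elements in regions with a peak in every library then stayed at 5, and the promoters with q at most 0.01 in every library at 7. Neither count can fall when a library is removed. The only other element lay in no region, so the element count could not rise either. With flanks of 20 kb the 45 regions with a peak in every library became 28, and the regions selective for sort-positive or sort-negative libraries fell from 4 to 1 and from 1 to 0, as they did with regions from a q limit of 0.0001 (1 and 0). These changes follow from fewer regions. When peaks were ordered by -log10 p or by pileup scaled to depth, the number of promoters with both GFP+ libraries nearer the top went from 1 to 0 in each, and that with both Tomato+ libraries nearer from 0 to 1 in each. With the first set of lists only, 3 promoters (Id1, Id2 and Smad6) had GFP+ nearer the top. The sort-positive minus sort-negative difference at the Bmp7 promoter turned from 0.50 to -0.16 on the log2 scale with pileup, and the cause was not tested. The limma calls between GFP+ and Tomato+ went from 0 to 2, none of them at these genes, without Tomato+ replicate 8 and with the set of lists as a covariate.

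When each library except Tomato- replicate 7 was left out in turn, the regions with a peak in every library numbered 45 to 49. Those selective for GFP+ against Tomato+ numbered 0 to 18, and those selective for Tomato+ 2 to 26. Those selective for sort-positive libraries numbered 1 to 7, and those for sort-negative libraries 0 to 2. The count selective for GFP+ was 18 without GFP+ replicate 3 and 15 without GFP+ replicate 4. That selective for Tomato+ was 15 without Tomato+ replicate 6 and 26 without Tomato+ replicate 8. In each of these a class rests on 1 library. Without GFP- replicate 1 the sort-positive regions were 7 and the sort-negative regions 0, the latter also without GFP- replicate 2, and they were 2 without GFP+ replicate 3 or Tomato+ replicate 8. Promoters with GFP+ nearer the top numbered 2 to 3 and those with Tomato+ nearer 0 to 2, since a group is then 1 library. The limma calls numbered 0 to 2 between GFP+ and Tomato+ and 0 to 0 in the other comparisons. A fit that leaves 1 library in a group assumes that it varies like the others. No paired analysis was possible because the groups share no replicate number. Depth could not be equalised without reads, and a peak that is missing from a list may lie just below the p limit of 0.01.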
